A study of Mus musculus with 9 samples.

Results

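Zinc transporters and metallothioneins were followed in naive CD4+ T cells of the mouse through 10 of the 55487 genes in the deposited tables. They are the zinc exporters Slc30a4, Slc30a1, Slc30a5, Slc30a6 and Slc30a7, the zinc importers Slc39a1 and Slc39a10, the metallothioneins Mt1 and Mt2, and the zinc-sensing transcription factor Mtf1. The genes were picked by symbol with their levels in these libraries already known, so their own levels and fold changes are given as a description, with no p-value. Lymph nodes of C57BL6/J mice of wild-type genotype were the source of the cells in all groups, no other allele being named, and their polyadenylated RNA was sequenced in 9 libraries. The 3 groups of 3 libraries were cells kept for 20 h in culture with recombinant interleukin-1 beta at 10 ng/mL (IL-1b-treated), cells kept for 20 h in culture without it (cultured) and cells taken straight after isolation (fresh). The labels give no animal age, and they leave it unsaid whether each library of a group had its own animal or culture. The p-values below may therefore measure technical spread alone.

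Zinc in cells is held in narrow limits by transporters and by binding proteins. Slc30a proteins (ZnT) move zinc out of the cytosol, either out of the cell or into the Golgi, endosomes and other organelles, and Slc39a proteins (ZIP) move it into the cytosol. Metallothioneins bind zinc and copper through their cysteines. When free zinc is high, Mtf1 enters the nucleus and binds metal response elements (MRE) in the promoters of Mt1, Mt2 and Slc30a1, which is why those genes are widely used as readouts of zinc. In T cells, zinc taken up or released from stores is known to take part in signalling after antigen contact.

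Promoter windows of the 10 genes, from 250 bases before to 50 bases after the annotated start, were read from RefSeq on GRCm38.p6. All 10 had a window, and Slc39a10 had 2. Those of Slc39a10 lie at chr1:46925727-46926026, outside the gene span given below, and at chr1:46853569-46853868, inside it. Neither covers the start of that span, nor does the Mtf1 window at chr4:124802299-124802598 cover the start of its own. The MRE core was searched as TGCACNC and TGCGCNC on both strands, where N is any base. The antioxidant response element, the site bound by Nrf2, was searched as TGACNNNGC on both strands. Of the windows of these 10 genes, the 4 with at least 2 MRE cores are printed. They hold the established MTF-1 targets and the gene of the 10 with the highest fold change between cultured and fresh cells. They are written 5′ to 3′ on the gene's strand in lower case, and capitals mark the MRE cores, which read in reverse complement where they lie on the other strand. Their positions are Mt1 at chr8:94178839-94179138 (+), Mt2 at chr8:94172368-94172667 (+), Slc30a1 at chr1:191906531-191906830 (+) and Slc30a4 at chr2:122702614-122702913 (-).
Mt1: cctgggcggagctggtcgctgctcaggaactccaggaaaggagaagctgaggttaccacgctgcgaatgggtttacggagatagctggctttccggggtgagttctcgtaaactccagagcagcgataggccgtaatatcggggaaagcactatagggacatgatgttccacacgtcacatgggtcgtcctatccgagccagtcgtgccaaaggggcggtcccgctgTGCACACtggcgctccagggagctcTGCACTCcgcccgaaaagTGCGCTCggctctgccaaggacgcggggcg
Mt2: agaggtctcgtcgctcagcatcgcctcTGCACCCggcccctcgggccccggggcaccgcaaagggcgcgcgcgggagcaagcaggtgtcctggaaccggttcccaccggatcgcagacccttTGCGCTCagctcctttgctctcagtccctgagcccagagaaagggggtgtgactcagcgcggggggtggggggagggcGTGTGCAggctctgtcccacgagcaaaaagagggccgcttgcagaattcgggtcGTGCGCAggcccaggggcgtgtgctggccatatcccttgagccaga
Slc30a1: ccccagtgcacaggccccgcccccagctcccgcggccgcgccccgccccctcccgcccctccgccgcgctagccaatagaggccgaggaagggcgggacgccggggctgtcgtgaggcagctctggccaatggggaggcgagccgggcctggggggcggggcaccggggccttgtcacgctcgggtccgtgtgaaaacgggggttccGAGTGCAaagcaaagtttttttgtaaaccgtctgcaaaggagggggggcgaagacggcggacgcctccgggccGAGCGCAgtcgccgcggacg
Slc30a4: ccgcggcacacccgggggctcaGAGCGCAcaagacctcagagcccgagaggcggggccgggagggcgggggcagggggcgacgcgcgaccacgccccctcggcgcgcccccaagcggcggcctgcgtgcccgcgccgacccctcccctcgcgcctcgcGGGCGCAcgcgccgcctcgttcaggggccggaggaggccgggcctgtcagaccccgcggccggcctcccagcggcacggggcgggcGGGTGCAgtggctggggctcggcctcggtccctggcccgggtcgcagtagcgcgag

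Mt2 had 4 MRE cores, Mt1 and Slc30a4 had 3 each, Slc30a1 had 2 and Slc30a5 had 1. Among zinc transporters outside the 10 genes, Slc30a10 had 3 and Slc30a2 had 2, and both genes had 0 counts in all libraries. The other windows found for those transporters held at most 1 core each. No relation between matches and RNA level was tested. Of all 32851 windows in the RefSeq table, 25.7% held at least 1 core, 7.11% at least 2, 1.97% at least 3 and 0.517% at least 4. In Slc30a4 all 3 cores lay on the strand opposite to the gene, beginning 228, 92 and 6 bases before the start. In Mt1 all 3 lay on the strand of the gene. Slc30a6, Slc30a7, Slc39a1, Slc39a10 and Mtf1 had no match to these letters. The antioxidant element was matched 1 time each in Mt2, Slc30a1, Slc30a5 and Slc39a1, against 12.4% of all windows with at least 1 match. A match is a run of letters and was not tested for binding in these cells. Sites outside the windows were not searched, so a window without a match does not mean that the gene has none.

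**Figure D1:**
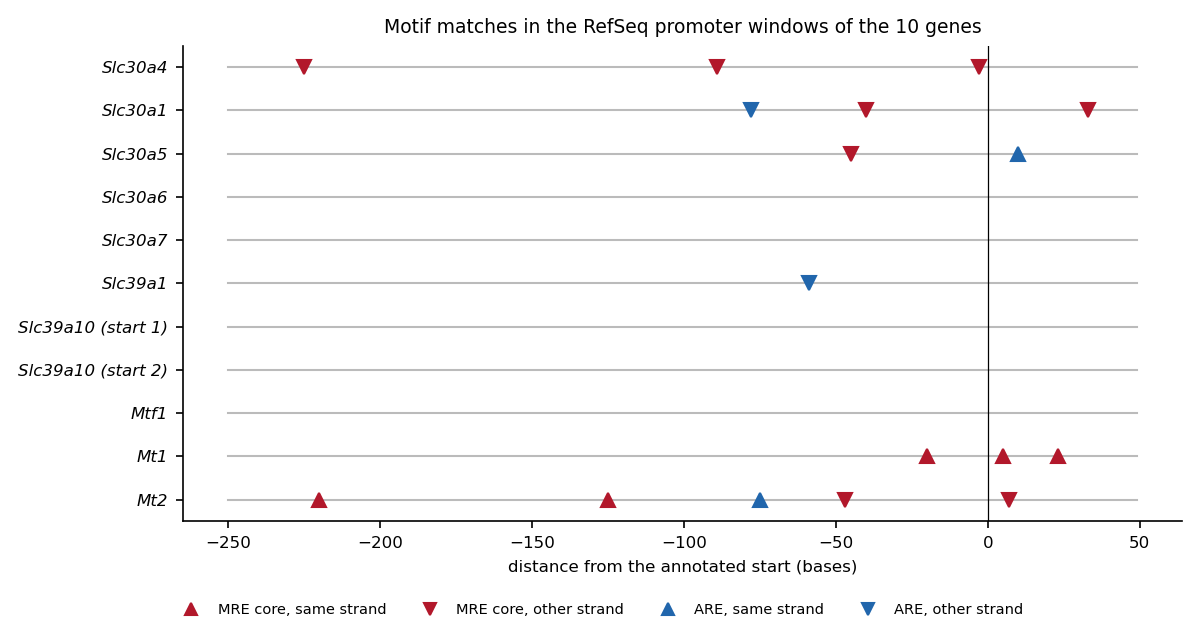
Positions of motif matches (triangles) in the promoter windows of the 10 genes, by distance in bases from the annotated start at 0; upward triangles lie on the strand of the gene, downward ones on the other strand, red marks MRE cores and blue the antioxidant response element. Slc30a4, Mt1 and Mt2 have 3, 3 and 4 MRE cores in their windows, and 5 genes have none there.

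Library totals ranged from 13518814 to 23056686 counts. Fold changes below are on the log2 scale from TMM-normalised counts (TMM scales libraries so that the bulk of genes shows no change), with the standard error (SE), from edgeR's quasi-likelihood fit over all 9 libraries, and a gene is called at a Benjamini-Hochberg adjusted p under 0.05 over 13043 tested genes. Levels are in TPM, the relative abundance of transcripts per unit of length, or in TMM-normalised CPM, the relative number of counts, which grows with length. The 2 scales differ here: the median of all genes between IL-1b-treated and cultured cells was -0.01 in the fit and -0.25 on log2(TPM + 1), between cultured and fresh cells it was 0.00 and -0.19, and between IL-1b-treated and fresh cells -0.01 and -0.45. A gene whose TPM is slightly lower can therefore be higher relative to the other genes. Calls split into 2037 higher and 1731 lower between IL-1b-treated and cultured cells in the fit, 1192 and 3270 with library size alone, 207 and 4411 on log2(TPM + 1), 190 and 4260 on log2(TPM + 0.1), and 1691 and 731 after removal of each library's trend on length and GC content. Between cultured and fresh cells they split into 3829 and 3765 in the fit, 1831 and 4791 on log2(TPM + 1), and 1778 and 4576 on log2(TPM + 0.1). Between IL-1b-treated and fresh cells the split was 4287 and 4252 in the fit, 3409 and 5277 with library size alone, 1505 and 7102 on log2(TPM + 1), and 1485 and 7008 on log2(TPM + 0.1).

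The T cell label was checked against its markers. The 12 T cell markers (none at 0 in all libraries) summed to 4239 to 4257 TPM in IL-1b-treated libraries, 4876 to 4900 in cultured libraries and 6504 to 6653 in fresh libraries. Markers of B cells (20 genes, none at 0 in all libraries) summed to 175 to 196 TPM in IL-1b-treated libraries, 202 to 210 in cultured libraries and 784 to 966 in fresh libraries, and all 20 fell in cultured against fresh cells. Neutrophil markers (12 genes) summed to 0 to 2.33 TPM in IL-1b-treated, 0.460 to 0.890 TPM in cultured and 20.6 to 55.0 TPM in fresh libraries. NK cell markers (7 genes, Klra4 at 0) summed to 5 to 6.53 TPM with IL-1b, 6.77 to 8.36 TPM in cultured and 37.3 to 43.4 TPM in fresh libraries. Erythroid markers (5 genes) summed to 0.15 to 1.76 TPM with IL-1b, 0.520 to 4.03 TPM in cultured and 7.83 to 35.7 TPM in fresh libraries. Myeloid sums (12 genes) lay between 246 and 285 TPM in all libraries, most of it from Ctss and Cst3. Of the 9 tested myeloid markers, however, 5 fell and 1 rose in cultured against fresh cells (median -4.04), and 5 fell and 3 rose in IL-1b-treated against fresh cells. The 5 that fell were Lyz2, Csf1r, Adgre1, Itgax and Mpeg1, and Lyz2 averaged 0.0902 ± 0.0463 CPM in IL-1b-treated cells, 0.0829 ± 0.144 in cultured cells and 8.67 ± 1.30 in fresh cells (SD, n = 3 each). Stromal sums (7 genes, with Col3a1, Pdpn, Pdgfra and Lyve1 at 0) lay between 140 and 181 TPM. Of these 7 genes, 6 failed the filter on low counts and only Pecam1 was tested, so no stromal content is read from the sums. The 2 CD8 markers summed to 37.9 to 42.4 TPM in IL-1b-treated libraries, 41.2 to 50.1 in cultured libraries and 23.8 to 25.6 in fresh libraries. Summed levels of B cell, neutrophil, NK and erythroid markers and the levels of those 5 myeloid markers were thus higher in fresh cells, and the part of this in each difference between cultured or IL-1b-treated and fresh cells below was not tested. In such bulk RNA, fewer cells of a type and less RNA per cell cannot be told apart.

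Of the 10 genes, 8 passed the filter on low counts and 2, Mt1 and Mt2, did not. Between IL-1b-treated and cultured cells 3 of the 8 were called, Slc30a5 and Slc39a10 higher and Mtf1 lower, against 28.9% of all tested genes. Between cultured and fresh cells 6 were called, against 58.2% of all: Slc30a4, Slc30a5, Slc30a6, Slc30a7 and Slc39a10 higher (29.4% of all genes were called higher) and Mtf1 lower (28.9% were called lower). Between IL-1b-treated and fresh cells 7 were called, against 65.5% of all, Slc30a4, Slc30a5, Slc30a6, Slc30a7 and Slc39a10 higher (32.9% of all genes) and Mtf1 and Slc30a1 lower (32.6% of all). The median log2 fold change of the 8 genes was 0.08, 0.40 and 0.51 in these 3 comparisons, and that of all genes -0.01, 0.00 and -0.01. Since the genes were picked with these values known, nothing is read from the counts. The comparisons share libraries, so they are not independent of each other.

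Slc30a4 (ZnT4) is a zinc exporter of endosomes and secretory vesicles, known in the mouse for the lethal milk mutation, in which milk lacks zinc. Its gene spans chr2:122681233-122702663 on the minus strand (GRCm38). Slc30a4 stood at 79.1, 78.2 and 77.0 TPM in IL-1b-treated cells, 88.6, 93.4 and 92.7 TPM in cultured cells and 4.24, 5.63 and 4.77 TPM in fresh cells. Every cultured and IL-1b-treated library was far above every fresh one, while the IL-1b-treated libraries lay below the cultured ones on this scale. In expected counts, the reads RSEM assigns to a gene, these levels rest on 6369, 5234 and 5526 in IL-1b-treated libraries, 5211, 5827 and 5713 in cultured libraries and 337, 318 and 228 in fresh libraries.

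Between cultured and fresh cells the log2 fold change of Slc30a4 was 4.45 ± 0.06 (SE), or 21.9-fold, and between IL-1b-treated and fresh cells 4.55 ± 0.06, or 23.4-fold. It ranked 43 of 13043 genes by fold change from the highest in cultured against fresh cells, and 4 of 11762 among genes with a mean of at least 1 TPM in fresh cells. In IL-1b-treated against fresh cells it ranked 39, and again 4 among those 11762. By mean CPM it ranked 424 from the highest with IL-1b, 471 after culture without it and 7289 when fresh. Over 20 alternative settings the log2 fold change in cultured against fresh cells stayed between 3.98 and 4.57, the lowest value being on log2(TPM + 1), which understates low genes. Between IL-1b-treated and cultured cells the log2 fold change was 0.10 ± 0.05, not called, and ran from -0.23 on log2(TPM + 0.1) to 0.16 after trend removal. With trend removal, with only those 2 groups in the fit and without fresh replicate 2 the gene was called in that comparison. The antisense transcript 4930417H01Rik overlaps Slc30a4 and had 0 to 9 counts, against at least 228 for Slc30a4.

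**Figure D2:**
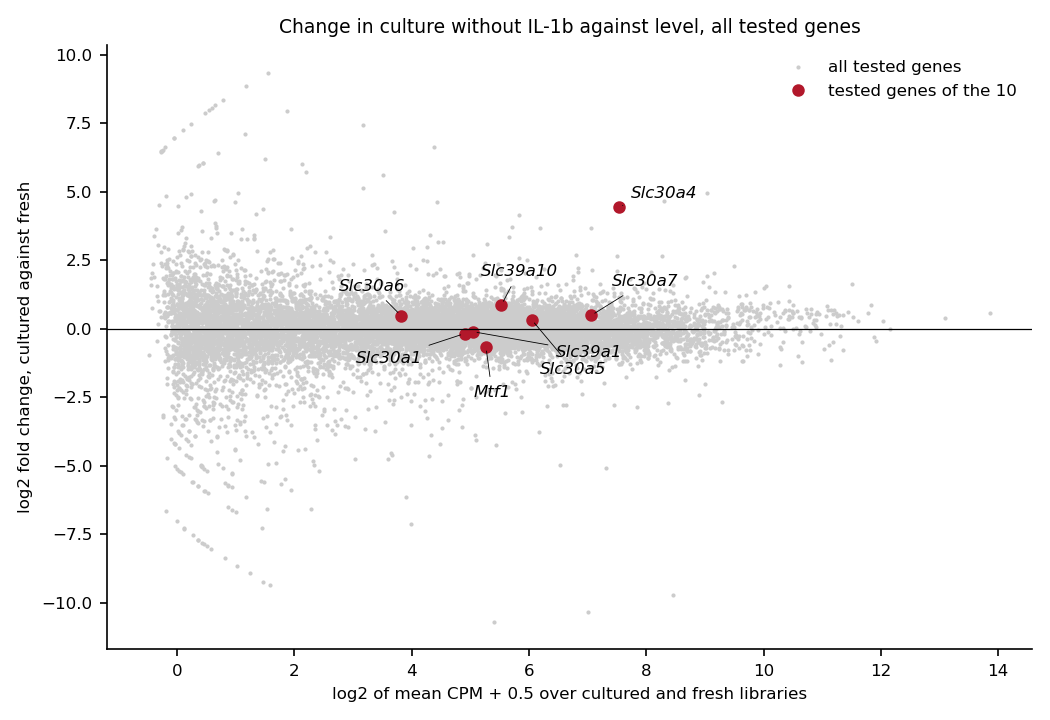
Log2 fold change of cultured against fresh cells (vertical axis) against the log2 of the mean CPM + 0.5 over those 6 libraries (horizontal axis) for all 13043 tested genes in grey, with the 8 tested zinc genes in red. Slc30a4, at 4.45, stands clear of the bulk of genes, while the other 7 lie between -0.67 and 0.87.

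The tested genes whose pattern over the 9 libraries was nearest to that of Slc30a4 were sought among 10524 candidates. The measure was the root mean square distance between log2(CPM + 0.5) values, each gene centred on its own mean. They were Myo6, a myosin motor of endocytic traffic (distance 0.21), Jaml, an adhesion molecule of leukocytes (0.23), Ecm1, an extracellular matrix protein (0.27), Il2ra, the alpha chain of the interleukin-2 receptor (0.29), and Acvr1c, a receptor of the activin family (0.30). Myo6 averaged 733 ± 11.6 CPM in IL-1b-treated cells, 609 ± 6.01 in cultured cells and 24.1 ± 1.76 in fresh cells (SD, n = 3 each). Il2ra averaged 43.9 ± 4.47 CPM with IL-1b, 40.7 ± 1.57 CPM in cultured and 1.65 ± 0.570 CPM in fresh cells (SD, n = 3 each). Acvr1c averaged 15.3 ± 2.66 CPM with IL-1b, 16.9 ± 1.66 CPM in cultured and 0.0882 ± 0.0768 CPM in fresh cells (SD, n = 3 each). That fresh level lay below 3 counts in a fresh library (0.130 to 0.222 CPM), so the added 0.5 set most of its value there. Slc30a4 averaged 376 ± 6.02 CPM in IL-1b-treated cells, 352 ± 11.0 in cultured cells and 16.3 ± 2.48 in fresh cells. As in those 5 genes, which were picked for this likeness, its level was higher in both cultures than in fresh cells.

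Slc30a1 (ZnT1), the exporter of the plasma membrane and a textbook MTF-1 target, lies at chr1:191906767-191913247 on the plus strand. It stood at 5.80, 6.49 and 5.71 TPM in IL-1b-treated cells, 6.87, 6.81 and 8.11 in cultured cells and 11.4, 10.3 and 9.94 in fresh cells. In CPM, which the fit uses, it averaged 26.7 ± 1.00 in IL-1b-treated cells, 27.5 ± 2.87 in cultured cells and 31.2 ± 0.725 in fresh cells (SD, n = 3 each). The fresh group had the highest mean on both scales and overlapped neither culture in TPM, but in CPM cultured replicate 3 lay within the range of the fresh libraries. The log2 fold change was -0.05 ± 0.09 between IL-1b-treated and cultured cells, -0.18 ± 0.09 between cultured and fresh cells (neither called) and -0.23 ± 0.09 between IL-1b-treated and fresh cells (called). After removal of the length and GC trend the last value was 0.29, of opposite sign, so no direction can be given for Slc30a1 in that comparison. Its call was lost with effective lengths as an offset (-0.27), without IL-1b-treated replicate 2 or 3 and without any 1 of the fresh replicates. In cultured against fresh cells it was called on log2(TPM + 1) (-0.49), with library size alone (-0.23), with effective lengths as an offset (-0.31) and without cultured replicate 3 (-0.27). The antisense gene 1700034H15Rik overlaps Slc30a1, with 11.5 to 21.4 counts against at least 356. In the same libraries Slc30a4, which moves zinc into vesicles, was 21.9-fold higher in cultured than in fresh cells, whereas Slc30a1, which moves it out of the cell, was not called between them.

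Slc30a5 (ZnT5) and Slc30a6 (ZnT6) pair into a transporter that loads zinc into the early secretory pathway, and Slc30a7 (ZnT7) does so on its own in the Golgi. The genes span chr13:100802648-100833427 (-), chr17:74395608-74424221 (+) and chr3:115938973-116007406 (-). Slc30a5 stood at 29.3, 31.1 and 33.6 TPM in IL-1b-treated cells, 36.2, 35.4 and 33.6 in cultured cells and 35.6, 34.0 and 31.7 in fresh cells, and the 3 groups overlapped on this scale. In CPM it averaged 83.2 ± 3.89 in IL-1b-treated cells, 72.9 ± 2.46 in cultured cells and 58.2 ± 1.27 in fresh cells (SD, n = 3 each), with no overlap between groups. Its log2 fold change was 0.19 ± 0.06 between IL-1b-treated and cultured cells, 0.32 ± 0.06 between cultured and fresh cells and 0.51 ± 0.06 between IL-1b-treated and fresh cells, all called. On log2(TPM + 1) the values were -0.16, 0.05 and -0.10, so its direction depended on the scale. The call between IL-1b-treated and cultured cells was also lost with library size alone (0.07), with effective lengths as an offset (0.16) and without IL-1b-treated replicate 3 or cultured replicate 3.

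Slc30a6, the partner of Slc30a5, had the widest SE of the tested exporters. It had 15.9, 13.3 and 13.0 TPM in IL-1b-treated cells, 25.1, 14.2 and 14.2 in cultured cells and 11.8, 13.7 and 19.0 in fresh cells. Cultured replicate 1 stood above the rest of its group, and RSEM gave that library an effective length of 1025 bases for the gene, against 1284 and 1320 in the other cultured libraries. In expected counts, which do not depend on that length, the cultured libraries had 298, 222 and 228. The log2 fold change was 0.06 ± 0.15 between IL-1b-treated and cultured cells (not called), 0.48 ± 0.15 between cultured and fresh cells and 0.54 ± 0.15 between IL-1b-treated and fresh cells (both called). The call between cultured and fresh cells was lost without cultured replicate 1 (0.31), without fresh replicate 1 (0.38), after trend removal (0.21), with effective lengths as an offset (0.50) and on log2(TPM + 1) (0.23). That between IL-1b-treated and fresh cells was lost after trend removal (0.12), with effective lengths as an offset (0.48) and on log2(TPM + 1), where the value was -0.05.

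Slc30a7 had 27.4, 29.9 and 21.8 TPM in IL-1b-treated cells, 33.4, 27.6 and 32.5 in cultured cells and 22.4, 28.6 and 20.2 in fresh cells, with overlap between the groups. Its effective length, as RSEM set it, varied between 5454 and 8668 bases over the libraries. In CPM it was tighter, at 158 ± 5.47 in IL-1b-treated cells, 155 ± 5.08 in cultured cells and 111 ± 3.15 in fresh cells (SD, n = 3 each), and every cultured or IL-1b-treated library exceeded every fresh one. Its log2 fold change was 0.03 ± 0.04 between IL-1b-treated and cultured cells (not called), 0.48 ± 0.04 between cultured and fresh cells and 0.51 ± 0.04 between IL-1b-treated and fresh cells (both called). On log2(TPM + 1) the last 2 were 0.39 and 0.15 and were not called. The pseudogenes Gm43106 and Gm6649 overlap Slc30a7, with up to 34.8 and 79.1 counts, and its own counts were mostly not whole, so a share of its reads was divided among matching genes.

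**Figure D3:**
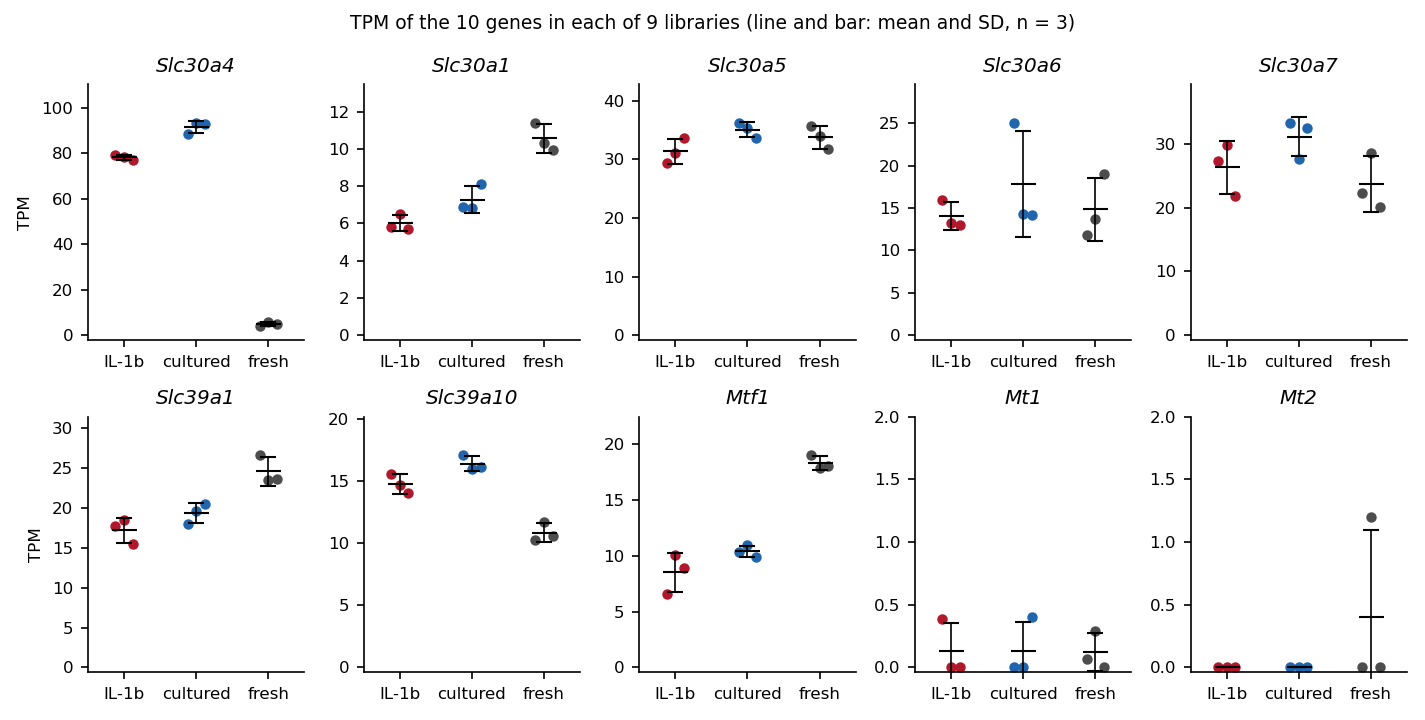
TPM of each of the 10 genes in the 9 libraries, 1 panel per gene with its own axis from 0; points are libraries, the black line and bar the mean and SD of 3 libraries, with IL-1b-treated cells in red, cultured in blue and fresh in grey. Slc30a4 is at 77.0 to 93.4 TPM in both cultures and 4.24 to 5.63 TPM in fresh cells, Mtf1 is highest in fresh cells, and Mt1 and Mt2 are at or near 0 throughout.

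Slc39a10 (ZIP10), an importer of the plasma membrane, spans chr1:46807544-46892852 on the minus strand. It had 15.6, 14.7 and 13.99 TPM in IL-1b-treated cells, 17.1, 16.0 and 16.1 in cultured cells and 10.2, 11.7 and 10.6 in fresh cells. All cultured and IL-1b-treated libraries exceeded the fresh ones, and the IL-1b-treated ones lay below the cultured ones. In CPM it averaged 71.4 ± 4.30 in IL-1b-treated cells, 59.0 ± 1.68 in cultured cells and 32.4 ± 1.74 in fresh cells (SD, n = 3 each), with no overlap between any groups. The log2 fold change was 0.87 ± 0.07 (1.82-fold) between cultured and fresh cells and 1.14 ± 0.07 (2.21-fold) between IL-1b-treated and fresh cells. Over the 20 alternatives these stayed above 0, from 0.56 to 0.91 and from 0.41 to 1.19. Between IL-1b-treated and cultured cells it was 0.28 ± 0.07, called in the fit, 0.16 with library size alone and 0.17 with effective lengths as an offset, not called in either, and -0.14 on log2(TPM + 1). Thus the direction of the difference with IL-1b depended on the scale, and that of the difference from fresh cells did not. A long noncoding RNA gene on the same strand, Gm28151, overlaps Slc39a10 and had 21 to 85 counts against at least 457.

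By the same distance as above, the genes nearest to Slc39a10 were Emb, an adhesion protein that partners monocarboxylate transporters (0.05), Paip2, a repressor of translation that binds poly(A)-binding protein (0.05), Rab11a, a GTPase of recycling endosomes (0.05), Btf3l4, a relative of a nascent chain factor (0.05), and Ctps2, an enzyme of CTP synthesis (0.05). Emb averaged 499 ± 16.4 CPM in IL-1b-treated cells, 400 ± 8.80 in cultured cells and 232 ± 5.68 in fresh cells (SD, n = 3 each). The 5, which were picked for this likeness, share with Slc39a10 a stepwise order, with IL-1b-treated cells highest and fresh cells lowest in CPM. No likeness was sought for Mt1, which failed the filter.

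Slc39a1 (ZIP1), another importer of the plasma membrane, was called in no comparison, unlike the other 7 tested genes. Its gene spans chr3:90248172-90253612 on the plus strand. It had 17.7, 18.5 and 15.4 TPM in IL-1b-treated cells, 18.0, 19.6 and 20.5 in cultured cells and 26.7, 23.5 and 23.7 in fresh cells. On this scale all fresh libraries exceeded all cultured and IL-1b-treated ones. In CPM it averaged 34.8 ± 3.21 in IL-1b-treated cells, 31.3 ± 2.15 in cultured cells and 33.7 ± 2.55 in fresh cells (SD, n = 3 each), which overlapped throughout. The log2 fold change was 0.15 ± 0.09 between IL-1b-treated and cultured cells, -0.11 ± 0.09 between cultured and fresh cells and 0.04 ± 0.09 between IL-1b-treated and fresh cells. The last was -0.49 on log2(TPM + 1) and 0.30 after trend removal, both called, so its direction depended on the scale. In cultured against fresh cells it was -0.33 on log2(TPM + 1), called there.

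The metallothioneins were at the limit of detection in all 9 libraries. Mt1 had 2, 0 and 0 expected counts in IL-1b-treated libraries, 0, 0 and 2 in cultured libraries and 1, 1 and 0 in fresh libraries. Mt2 had 0 in all IL-1b-treated and cultured libraries and 0, 2 and 0 in the fresh ones. At this depth a floor of 3 counts over the 3 libraries of a group corresponds to 0.0617 CPM in IL-1b-treated cells, 0.0639 in cultured cells and 0.0571 in fresh cells, for counting error alone, and no group exceeded it for Mt1 or Mt2. Mt3 and Mt4, the metallothioneins of brain and of stratified epithelium, had 0 counts everywhere. No fold change is given for these genes, and a difference between groups was not detectable.

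Mtf1, the zinc sensor, spans chr4:124802104-124849800 on the plus strand. It had 6.61, 10.0 and 8.88 TPM in IL-1b-treated cells, 10.4, 10.9 and 9.90 in cultured cells and 19.0, 17.8 and 18.1 in fresh cells. Every fresh library exceeded every cultured and IL-1b-treated one. The log2 fold change was -0.67 ± 0.09 between cultured and fresh cells and -0.99 ± 0.09 between IL-1b-treated and fresh cells, and over the alternatives it stayed below 0, from -0.81 to -0.54 and from -1.16 to -0.57. Between IL-1b-treated and cultured cells it was -0.33 ± 0.09, called, but 0.02 with effective lengths as an offset. RSEM gave Mtf1 effective lengths of 3813, 2685 and 2556 bases in IL-1b-treated and 3554 to 3906 in cultured libraries. That call was also lost after trend removal (-0.22), on log2(TPM + 1) (-0.28), without IL-1b-treated replicate 3 (-0.26) and without cultured replicate 2 (-0.28). The gene 1110065P20Rik overlaps Mtf1 on the opposite strand, with 60.6 to 149 counts against at least 319 for Mtf1, and the strand setting of the counting is not given in the sources used here.

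Of 7 other genes listed from general knowledge as MTF-1 targets, 6 passed the filter. The list was made with earlier results of these data known, so its counts and p-values are given as a description. In IL-1b-treated against cultured cells 2 rose and none fell, against 28.9% of all tested genes called, with a median of 0.06 against -0.01 for all genes. They were the selenoproteins Selenow (0.25 ± 0.05, adjusted p = 0.000207 by edgeR) and Selenoh (0.50 ± 0.10, adjusted p = 0.000529), but on log2(TPM + 1) Selenow was -0.08 and Selenoh 0.14 (adjusted p = 0.307), neither called. Selenow also lost its call after trend removal (0.13). In cultured against fresh cells 4 rose and 2 fell, against 58.2% of all genes called (median 0.41 against 0.00). Ndrg1, a gene of stress and hypoxia, rose by 1.94 ± 0.10 (adjusted p = 1.01e-13), Gclc, the catalytic subunit of the first enzyme of glutathione synthesis, rose by 0.72 ± 0.06 (adjusted p = 2.5e-10), and Fth1, the ferritin heavy chain, fell by 0.54 ± 0.04 (adjusted p = 7.14e-12). In IL-1b-treated against fresh cells 4 rose and 2 fell, against 65.5% of all genes called (median 0.59 against -0.01), with Ndrg1 at 1.86 ± 0.10 (adjusted p = 1.45e-13), Gclc at 0.78 ± 0.06 (adjusted p = 3.88e-11) and Fth1 at -0.48 ± 0.04 (adjusted p = 4.03e-11).

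The other 17 zinc transporter genes are those left after the 7 above were picked with their levels known. They are therefore not a neutral background for the 7. Of the 17, 11 passed the filter. The remaining 6 were Slc30a2, Slc30a8, Slc30a10 and Slc39a12, with 0 counts in all libraries, Slc30a3 with 3 counts over the IL-1b-treated libraries, 0 over the cultured ones and 1 over the fresh ones, and Slc39a5 with 0 counts with IL-1b, 2 after culture without it and 9 when fresh. Between cultured and fresh cells 6 of the 11 were called, 3 in each direction, near the 58.2% of all genes, and the median of the 11 was -0.03. Between IL-1b-treated and fresh cells 5 were called, 3 higher and 2 lower, against 65.5% of all genes, with a median of -0.12. Slc39a4 (ZIP4), best known as the zinc importer of the intestine, had 3.12, 4.26 and 2.64 TPM in IL-1b-treated cells, 4.37, 3.73 and 3.26 in cultured cells and 1.27, 1.87 and 0.700 in fresh cells, and both cultures lay above the fresh cells without overlap. It rose by 1.63 ± 0.26 in cultured against fresh cells (adjusted p = 1.22e-05 by edgeR) and by 1.58 ± 0.26 in IL-1b-treated against fresh cells (adjusted p = 1.43e-05), and both calls held under all 20 alternatives.

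Slc39a7 (ZIP7), which releases zinc from the endoplasmic reticulum into the cytosol, was the most abundant zinc transporter RNA of fresh cells. It had 76.4, 61.7 and 72.2 TPM in IL-1b-treated cells, 81.5, 78.4 and 85.9 in cultured cells and 154, 170 and 151 in fresh cells, so that fresh cells stood apart. Some of its expected counts were not whole, so reads shared with other genes enter these values. It fell by 0.59 ± 0.05 in cultured against fresh cells (adjusted p = 4.09e-10 by edgeR), with a range of -0.95 to -0.29 over the alternatives. In IL-1b-treated against fresh cells it fell by 0.48 ± 0.05 (adjusted p = 6.92e-09), but the value was -0.09 after trend removal and no longer called (adjusted p = 0.128). Slc39a3 (ZIP3), an importer of the plasma membrane, fell by 0.53 ± 0.09 in cultured (adjusted p = 1.34e-05) and by 0.68 ± 0.09 in IL-1b-treated cells against fresh ones (adjusted p = 3.46e-07). After trend removal the values were -0.13 and -0.08, neither called.

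Smaller changes among the other importers turned on the scale. In cultured against fresh cells Slc39a6 (ZIP6) rose by 0.34 ± 0.09 (adjusted p = 0.00304 by edgeR) and Slc39a14 (ZIP14), which also carries iron and manganese, by 0.33 ± 0.08 (adjusted p = 0.00206), while Slc39a11 (ZIP11) fell by 0.51 ± 0.13 (adjusted p = 0.00172). On log2(TPM + 1) Slc39a6 was 0.06 and not called, and Slc39a14 was -0.10 and not called, and Slc39a11 was -0.16 after trend removal and not called. In IL-1b-treated against fresh cells Slc39a6 rose by 0.42 ± 0.09 (adjusted p = 0.000335) and Slc39a8 (ZIP8), an importer of zinc and manganese, by 0.54 ± 0.19 (adjusted p = 0.0179), with -0.12 and -0.02 on log2(TPM + 1). The call of Slc39a8 was also lost without fresh replicate 2 or 3. Slc30a9, the mitochondrial zinc exporter, and Slc39a2, Slc39a9 and Slc39a13 were called in none of the 3 comparisons, with log2 fold changes between -0.48 and 0.19. On log2(TPM + 1), where the median gene was at -0.45, these 4 were called lower in IL-1b-treated than in fresh cells, from -0.69 to -0.47, and Slc30a9 also against cultured cells (-0.33).

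Between IL-1b-treated and cultured cells 1 of the 11 was called, against 28.9% of all genes, with a median of 0.00. Slc39a11 rose by 0.44 ± 0.13 (adjusted p = 0.0132 by edgeR). The call was lost without IL-1b-treated replicate 1 (adjusted p = 0.068), without cultured replicate 1 (adjusted p = 0.0555) and without cultured replicate 2 (adjusted p = 0.0566). It was also lost on log2(TPM + 1), where the value was 0.09 (adjusted p = 0.671), with library size alone (0.33) and with effective lengths as an offset (0.44, adjusted p = 0.104). Slc39a14 stood at -0.22 ± 0.08 (adjusted p = 0.0566) and Slc39a7 at 0.10 ± 0.05 (adjusted p = 0.123), and the remaining 8 had adjusted p-values of at least 0.227.

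**Figure D4:**
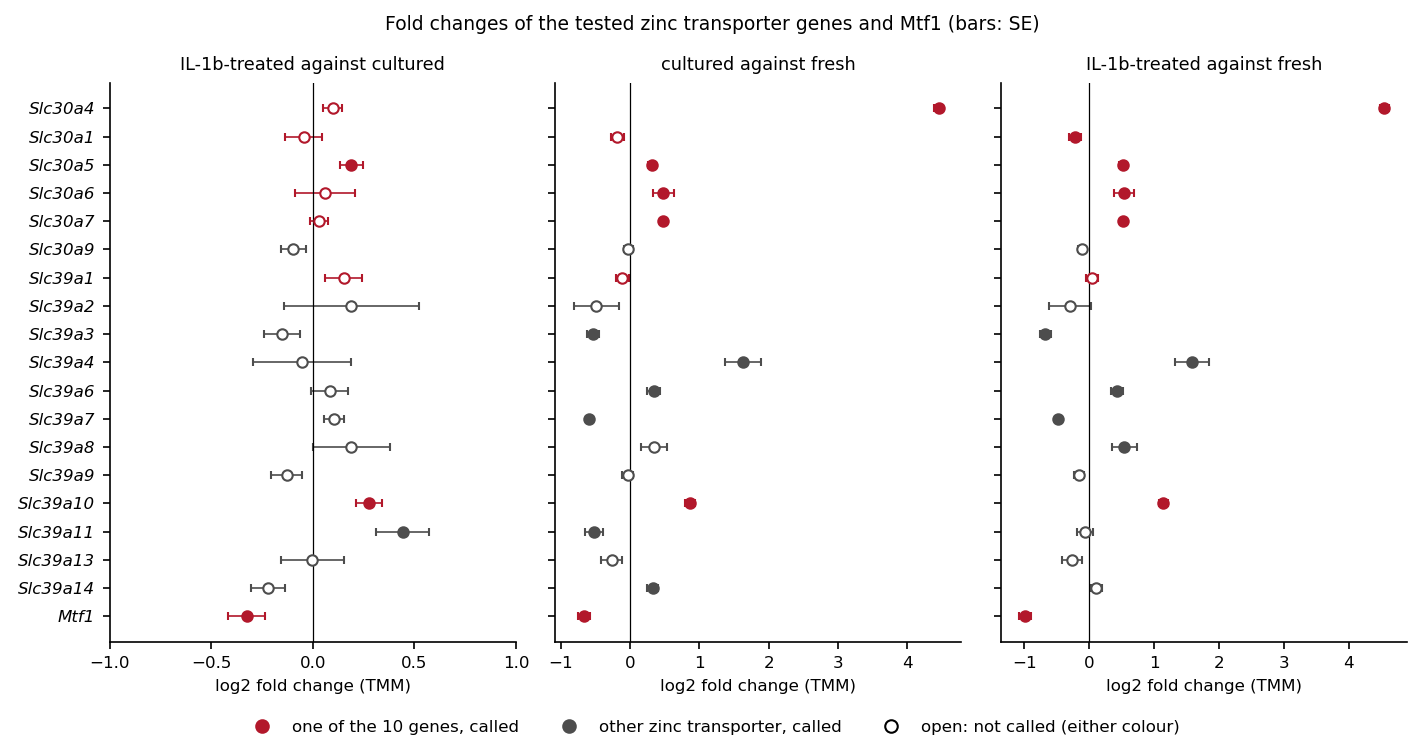
Log2 fold change with SE (bars) of the 18 tested zinc transporter genes and Mtf1 in the 3 comparisons, with a narrower axis in the first; red marks the picked genes, grey the other transporters, filled points are called and open ones not. In both comparisons with fresh cells Slc30a4, at 4.45 and 4.55, lies far from the rest, and with IL-1b against culture no gene exceeds 0.44.

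In summed TPM, the 10 Slc30a genes reached 177 ± 4.27 in IL-1b-treated cells, 209 ± 7.66 in cultured cells and 118 ± 5.95 in fresh cells (SD, n = 3 each). Slc30a4 alone made up 44.2 ± 0.532% of that sum in IL-1b-treated cells, 43.8 ± 2.79% in cultured cells and 4.14 ± 0.420% in fresh cells. Without it the sums were 98.6 ± 3.27 TPM in IL-1b-treated cells, 118 ± 10.2 TPM in cultured cells and 113 ± 5.34 TPM in fresh cells, and cultured and fresh cells overlapped. The 14 Slc39a genes summed to 168 ± 6.81 TPM in IL-1b-treated cells, 198 ± 7.29 in cultured cells and 294 ± 15.6 in fresh cells. Slc39a7 made up 41.6 ± 2.92% of that sum in IL-1b-treated cells, 41.3 ± 1.96% in cultured cells and 53.7 ± 1.03% in fresh cells. Importer sums without Slc39a7 were 98.2 ± 1.72 TPM in IL-1b-treated cells, 116 ± 6.89 TPM in cultured cells and 136 ± 6.30 TPM in fresh cells. The ratio of exporter to importer TPM was 1.05 ± 0.0474 in IL-1b-treated cells, 1.06 ± 0.0756 in cultured cells and 0.400 ± 0.00640 in fresh cells. As a ratio within each library it does not depend on the scaling between libraries. It can still carry each library's trend on length and GC content. Slc30a4 and Slc39a7, the largest parts of the sums in both cultures, weigh heavily in it. These sums contain the picked genes and are given without a test.

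**Figure D5:**
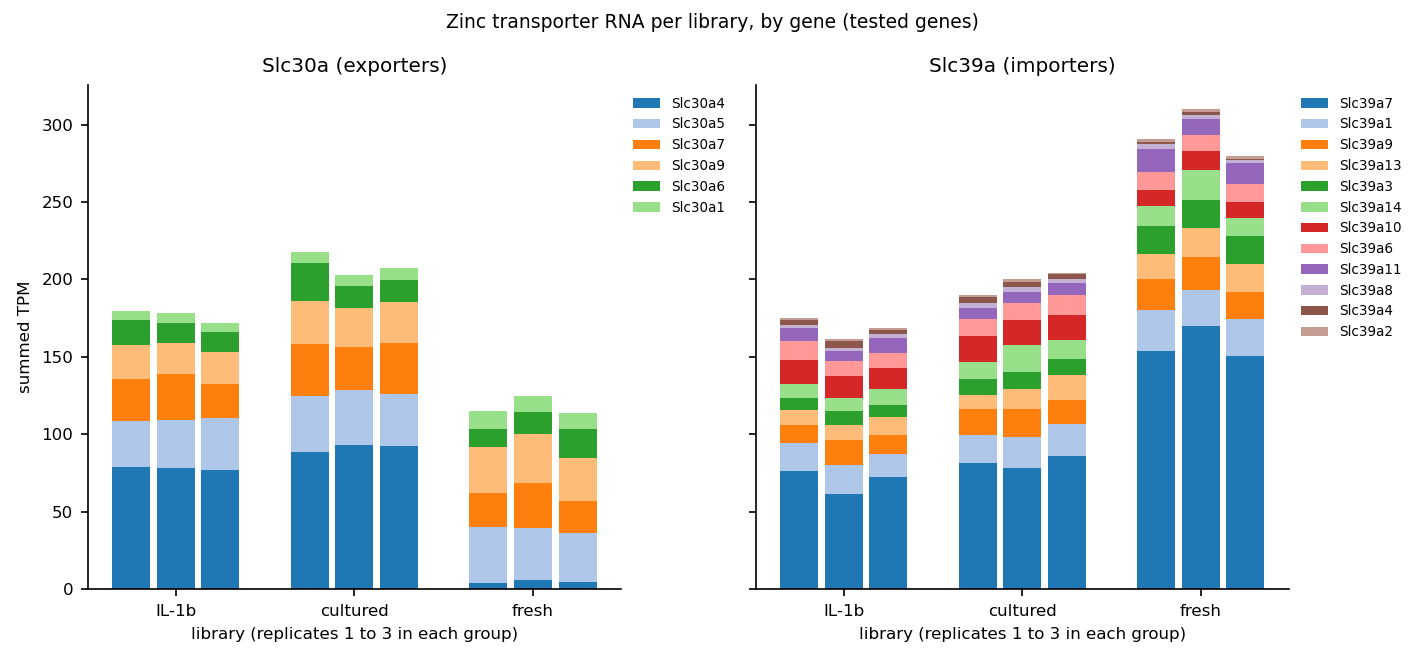
Summed TPM of the tested Slc30a genes (left) and Slc39a genes (right) in each of the 9 libraries, stacked by gene, with replicates 1 to 3 side by side in each group. The dark blue block at the foot of the left panel is Slc30a4, thin in fresh cells, and that of the right panel is Slc39a7, largest in fresh cells.

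The transporters were also ordered by mean TPM. In IL-1b-treated and in cultured cells Slc30a4 came first and Slc39a7 second, with no overlap of their libraries, followed by Slc30a5 and Slc30a7. In fresh cells Slc39a7 came first, then Slc30a5 and Slc30a9, whose libraries overlapped, and Slc30a4 ranked 15 of 24, below Slc30a1 and above Slc39a8 with no overlap on either side. Slc39a10 ranked 7 in IL-1b-treated cells, 9 in cultured cells and 13 in fresh cells, but its libraries overlapped those of the next gene in each group.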

How the data were processed

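Polyadenylated RNA of 9 libraries was measured, 3 in each group. Per the labels' protocols, libraries were made with a directional NEBNext kit. STAR alignment and RSEM quantification on mm10 are named in the submitters' processing notes. Not given in the sources used here are their versions and the strand setting of RSEM. Per the file headers, the authors deposited for each gene RSEM expected counts, in which shared reads are divided and no normalisation is made. The deposited TPM values are RSEM's own, scaled by effective length. FPKM values were deposited too and were not used here. Lengths and effective lengths of genes, in bases, were also read from the deposited tables.

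Symbols from GENCODE M21 (GRCm38, the assembly of mm10) were found for 55141 of 55487 gene identifiers. Expected counts were rounded to whole numbers and fitted with edgeR 4.0.16 under R 4.3.3. TMM normalisation and filterByExpr came first, then the quasi-likelihood test with only the group in the design and all 9 libraries in the fit. Benjamini-Hochberg adjustment ran over 13043 genes at a threshold of 0.05. The procedure was tested on simulated counts. Totals of 13518814 to 23056686 put 3 counts in a library at 0.130 to 0.222 CPM, for counting error alone. Fold changes of alternatives on TPM are on the log2(TPM + 1) or log2(TPM + 0.1) scale, fitted with limma 3.58.1, and understate low genes. Other alternatives were RLE size factors, library size alone, no filter, a filter of at least 10 counts in 3 libraries, DESeq2 1.42.0, effective lengths as an offset, removal of each library's trend on length and GC content with mgcv 1.9.3, only the groups compared, a replicate block and each library left out. Promoter windows are RefSeq's on GRCm38.p6. Tables and figures were made in Python 3.11.15 (pandas 2.3.3, numpy 2.4.6, matplotlib 3.10.9).

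The members and gene lists were chosen with earlier results of these data known. Named are the 10 genes, every other Slc30a and Slc39a gene, Mt3 and Mt4, up to 3 called genes of smallest adjusted p in each comparison from the lists of MTF-1 targets, copper, iron, glucocorticoid-induced and Nrf2-induced genes, and the 5 tested genes nearest to Slc30a4 and to Slc39a10 (no Gm or Rik model names, mean of at least 1 TPM in 1 group). Sequences of proteins were not used here.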

Additional observations from a re-analysis of the deposited data

How the results depend on the processing

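The higher levels of Slc30a4 and Slc39a10 and the lower level of Mtf1 in both cultures against fresh cells, and the higher level of Slc39a4 in both, kept their direction and side of the threshold under all 20 alternatives. For the picked genes this describes the fits and is not a test of their change. Calls with IL-1b depended on the setting. Of the 10 picked genes, 3 were called between IL-1b-treated and cultured cells, against 1 with library size alone and 0 on log2(TPM + 1), on log2(TPM + 0.1) and with an effective length offset; leaving out each library in turn gave 1 to 4, with 1 without IL-1b-treated replicate 3. Of the other transporters 1 was called, against 4 with library size alone, 0 with the length offset and 2 with RLE size factors, DESeq2, both TPM scales or trend removal; leaving out each library gave 0 to 2. Between IL-1b-treated and fresh cells 5 were called, against 9 on both TPM scales. Over all genes, 3768 were called between IL-1b-treated and cultured cells, against 2143 with the length offset and 2422 after trend removal.

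Among the named genes, 58 sign changes had no call in the fit or in the alternative and are not listed. Where either had a call, directions turned as follows, with the log2(TPM + 1) value before the log2(TPM + 0.1) value. Between IL-1b-treated and cultured cells they were -0.16 and -0.16 for Slc30a5, -0.14 and -0.15 for Slc39a10, -0.0798 and -0.08 for Selenow, -0.18 and -0.18 for Ftl1 and -0.05 and -0.0502 for Tsc22d3. Between IL-1b-treated and fresh cells they were -0.10 and -0.11 for Slc30a5, -0.0533 and -0.0554 for Slc30a6, -0.49 and -0.51 for Slc39a1, -0.12 and -0.13 for Slc39a6, -0.0181 and -0.0205 for Slc39a8 and -0.59 and -0.64 for Slc39a14. Between cultured and fresh cells they were -0.10 and -0.11 for Slc39a14. After trend removal Slc30a1 was 0.29 and Slc39a11 0.43 between IL-1b-treated and fresh cells, and with the length offset Mtf1 was 0.0208 between IL-1b-treated and cultured cells. On both TPM scales the median of all genes is itself lower, by the values given above; other causes were not tested.

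Libraries of 1 number did not deviate together (correlations of -0.0251 to 0.0189), so the labels' numbers were not taken as pairs. With a replicate block, 3652, 7485 and 8454 genes were called in the 3 comparisons, against 3768, 7594 and 8539 without it, and of the 10 genes 3, 6 and 7 in both. In the block fit Slc39a9, at -0.16 with IL-1b against fresh cells, passed the threshold.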

Other observations

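Zinc and copper are both bound by metallothioneins and by the superoxide dismutase Sod1. The gene lists of this section were chosen with earlier results of these data known. Their counts and p-values are therefore given as a description. Of 11 listed copper-handling genes, 10 were tested. In IL-1b-treated against cultured cells 4 rose and none fell, where 15.6% of all tested genes rose and 13.3% fell (median 0.36 against -0.01 for all genes). In cultured against fresh cells 8 rose and none fell, where 29.4% of all rose and 28.9% fell (median 0.48 against 0.00). In IL-1b-treated against fresh cells 8 rose and 1 fell, where 32.9% of all rose and 32.6% fell (median 0.83 against -0.01). Sod1, the copper-zinc superoxide dismutase, rose by 0.40 ± 0.05 (SE; adjusted p = 1.08e-06 by edgeR), 0.75 ± 0.05 (adjusted p = 1.25e-11) and 1.15 ± 0.05 (adjusted p = 2.49e-15) on the log2 scale in these comparisons. Cox17, the copper chaperone of cytochrome oxidase, rose by 0.37 ± 0.07 (adjusted p = 0.000248), 0.84 ± 0.07 (adjusted p = 9.45e-10) and 1.21 ± 0.07 (adjusted p = 7.82e-13). Atox1, a copper chaperone, rose by 0.55 ± 0.12 in IL-1b-treated against cultured cells (adjusted p = 0.00151), and Ccs, the chaperone of Sod1, rose by 0.91 ± 0.07 in cultured (adjusted p = 3.82e-10) and by 0.99 ± 0.07 in IL-1b-treated cells against fresh ones (adjusted p = 6.44e-11). The calls with IL-1b against culture were lost on log2(TPM + 1) for Sod1 (0.10, adjusted p = 0.313), Cox17 (0.22, adjusted p = 0.165) and Atox1 (0.19, adjusted p = 0.293), and Cox17 was 0.02 after trend removal (adjusted p = 0.896).

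Iron-handling genes moved in both directions, with 2 rising and 2 falling of 13 tested between IL-1b-treated and cultured cells, 5 and 6 between cultured and fresh cells, and 4 and 7 between IL-1b-treated and fresh cells, against 28.9%, 58.2% and 65.5% of all tested genes called. The ferritin chains parted: the light chain Ftl1 rose by 0.59 ± 0.03 in cultured against fresh cells (adjusted p = 7.06e-13 by edgeR), while the heavy chain Fth1 fell by 0.54 ± 0.04 (adjusted p = 7.14e-12). In IL-1b-treated against fresh cells Ftl1 rose by 0.74 ± 0.03 (adjusted p = 6.27e-15), Fth1 fell by 0.48 ± 0.04 (adjusted p = 4.03e-11), and Ncoa4, the receptor that takes ferritin to lysosomes, rose by 0.90 ± 0.05 (adjusted p = 7.29e-14). With IL-1b against culture Ncoa4 rose by 0.44 ± 0.05 (adjusted p = 1.43e-07), Ftl1 by 0.15 ± 0.03 (adjusted p = 0.00119), and Slc25a37, the mitochondrial iron importer, fell by 0.32 ± 0.06 (adjusted p = 0.000459). Of these, on log2(TPM + 1) Ncoa4 was 0.20 (adjusted p = 0.0726) and Ftl1 -0.18 (adjusted p = 0.0542), neither called, and Slc25a37 was -0.12 after trend removal (adjusted p = 0.22). Ftl1 in IL-1b-treated against fresh cells was 0.13 on log2(TPM + 1) and not called. Pcbp1, an iron chaperone, fell by 0.51 ± 0.05 in cultured against fresh cells (adjusted p = 4.52e-09).

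Metallothionein genes are also known to respond to glucocorticoids and to oxidative stress. Of 9 tested glucocorticoid-induced genes 2 rose and 2 fell between IL-1b-treated and cultured cells, and 4 rose and 5 fell in each comparison with fresh cells, against the same shares of all genes called. Tsc22d3 rose by 0.27 ± 0.03 (adjusted p = 2.49e-06 by edgeR), 1.10 ± 0.04 (adjusted p = 2.31e-17) and 1.37 ± 0.04 (adjusted p = 2.08e-19) in IL-1b-treated against cultured, cultured against fresh and IL-1b-treated against fresh cells. Per1 fell by 0.44 ± 0.10 (adjusted p = 0.00136) and Fkbp5 by 0.38 ± 0.09 (adjusted p = 0.00262) with IL-1b against culture. In that comparison Tsc22d3 was -0.05 on log2(TPM + 1), Per1 -0.21 after trend removal (adjusted p = 0.131) and Fkbp5 -0.36 with effective lengths as an offset (adjusted p = 0.0507), none of them called. Ddit4 fell by 3.03 ± 0.10 in cultured (adjusted p = 2e-17) and by 2.88 ± 0.10 in IL-1b-treated cells against fresh ones (adjusted p = 2.06e-17), Dusp1 fell by 2.23 ± 0.11 in cultured against fresh cells (adjusted p = 2.18e-14), and Pik3ip1 rose by 0.77 ± 0.04 in IL-1b-treated against fresh cells (adjusted p = 6.49e-15), but was 0.17 on log2(TPM + 1) and not called. Of 8 tested Nrf2-induced genes 1 rose and 1 fell, 4 rose and 2 fell, and 4 rose and 1 fell in the same 3 comparisons, where 28.9%, 58.2% and 65.5% of all genes were called. Prdx1, a peroxiredoxin, rose by 0.59 ± 0.04 (adjusted p = 2.71e-10), 1.30 ± 0.04 (adjusted p = 7.4e-17) and 1.89 ± 0.04 (adjusted p = 3.45e-20). Txnrd1, a thioredoxin reductase, fell by 0.23 ± 0.06 with IL-1b against culture (adjusted p = 0.00359) and rose by 0.43 ± 0.06 in cultured against fresh cells (adjusted p = 6.57e-07). With IL-1b against culture the calls were lost for Prdx1 on log2(TPM + 1) (0.27, adjusted p = 0.0697) and for Txnrd1 after trend removal (-0.14, adjusted p = 0.0885) and with effective lengths as an offset (-0.21). Slc7a11, the cystine importer, averaged 2.94 ± 1.01 CPM in IL-1b-treated and 0.0138 ± 0.0239 CPM in fresh cells (SD, n = 3 each). The fresh level lay below 3 counts in a fresh library (0.130 to 0.222 CPM), so the gene passed the filter only through the cultures. In the fit its fresh level was 0.0163 of that in cultured cells and 0.00864 of that in IL-1b-treated cells. Both values rest on that low fresh level. Slc7a11 was not called between IL-1b-treated and cultured cells.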
